A study of Mus musculus with 8 samples.

Results

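TRBV19 is the mouse T cell receptor beta variable segment that antibodies detect as Vbeta6. Every cell barcode with a productive TRB contig whose V segment was TRBV19 was taken from the 4 receptor libraries, and each clone was the clonotype named in the deposited tables. This gave 508 cells of the 6509 with a productive TRB chain, and 325 clones of 4344. The cells were CD45+ immune cells sorted from brain parenchyma on a C57BL/6 background. The 5xFAD;Cxcr6-/- group and the 5xFAD group had 2 receptor libraries each. Mice of both groups carry the 5xFAD transgenes, which are driven by the neuronal Thy1 promoter, so neither group is free of amyloid pathology. The first group also lacks both copies of Cxcr6, a chemokine receptor of tissue-resident T cells. The series title poses the question of how CXCR6 shapes T cell residency in the brain. Sex, age and whether a library is 1 mouse or a pool are not in the labels, so p-values measure the spread between these samples, which may be technical. Expression was measured in 4 further samples that are not analysed here, so the loss of Cxcr6 was not checked.

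A beta chain is made when a D segment joins a J segment and a V segment is then joined in front of them. The V segment supplies the CDR1 and CDR2 loops and the start of CDR3, the loop that contacts peptide most closely, while bases at the joints are trimmed and added at random. Mouse Vbeta6 chains are known for binding Mls-1a, a superantigen encoded by an endogenous mammary tumour virus. In humans, TRBV19 chains with an arginine-serine pair in CDR3 are known from the response to the influenza matrix protein.

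Trbv19 lies at chr6:41178375-41179048 on the plus strand of GRCm38 and is annotated as a TR_V_gene with 2 exons (ENSMUSG00000076475.2). Its first exon, which begins with a 5′ UTR, ends at 41178637, and its second exon, wholly coding, runs from 41178746 to 41179048. The gene ends 354 kb before Trbd1. The V region from framework 1 to framework 3 had a single nucleotide sequence in all TRBV19 contigs, and the same 270 bases are in the GENCODE transcript. It is shown because it is what all members share, with CDR1 (FNHDT) and CDR2 (SITEND) in capitals:
TRBV19: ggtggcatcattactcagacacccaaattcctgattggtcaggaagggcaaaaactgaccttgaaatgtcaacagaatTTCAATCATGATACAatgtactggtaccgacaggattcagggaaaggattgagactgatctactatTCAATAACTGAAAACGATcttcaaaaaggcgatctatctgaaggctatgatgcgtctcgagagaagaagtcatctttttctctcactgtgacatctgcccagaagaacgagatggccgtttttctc

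The germline segment then supplies 16 bases of CDR3, and the 4 in capitals encode an isoleucine and the first base of the next codon:
Germline CDR3 start: tgtgccagcagtATAG

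The CDR3 nucleotides below were picked to show how this start was kept or trimmed in large clones and in sequences found in 2 libraries. Lower case marks bases that match germline TRBV19 or the germline TRBJ, and capitals mark what lies between them, from the D segment or from added bases. Bases can match germline by chance, so the borders are approximate.
5xFAD;Cxcr6-/- library 2, 5 cells, TRBJ1-3: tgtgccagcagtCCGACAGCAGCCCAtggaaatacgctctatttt
5xFAD;Cxcr6-/- library 2, 4 cells, TRBJ2-7: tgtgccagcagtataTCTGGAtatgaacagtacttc
5xFAD library 1, 10 cells, TRBJ2-1: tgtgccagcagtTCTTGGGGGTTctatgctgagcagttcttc
5xFAD library 2, 29 cells, TRBJ2-7: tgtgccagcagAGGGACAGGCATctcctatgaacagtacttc
5xFAD library 2, 18 cells, TRBJ2-3: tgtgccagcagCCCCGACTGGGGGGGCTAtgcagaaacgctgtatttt
5xFAD library 2, 17 cells, TRBJ2-4: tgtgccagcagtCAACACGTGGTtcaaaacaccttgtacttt
In 5xFAD;Cxcr6-/- library 2 and 5xFAD library 1, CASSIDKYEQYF, TRBJ2-7: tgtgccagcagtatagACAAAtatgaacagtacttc
In 5xFAD;Cxcr6-/- library 2, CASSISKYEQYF, TRBJ2-7: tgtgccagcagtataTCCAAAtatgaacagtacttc
In 5xFAD library 1, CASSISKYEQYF, TRBJ2-7: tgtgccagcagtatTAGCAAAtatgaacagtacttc

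The libraries differed in depth. The 5xFAD;Cxcr6-/- libraries held 745 and 1304 cells with a TRB chain and 13460 and 22340 UMIs (unique molecular identifiers, 1 per captured transcript). The 5xFAD libraries held 2022 and 2438 such cells and 32169 and 34772 UMIs. The smallest library contributed 33 TRBV19 cells, so its values carry the widest intervals. Over the 6 pairs of libraries, 28 cell barcodes occurred in both, and 0 of them had the same TRB chain.

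TRBV19 was among the more used beta segments in both genotypes, and its share differed more between libraries of 1 genotype than between genotypes. Among the 22 TRBV segments it had rank 5 by mean share of clones, where the combined label TRBV12-2+TRBV13-2 counts as a segment. By clones its rank was 7 and 2 in the 5xFAD;Cxcr6-/- libraries and 8 and 3 in the 5xFAD libraries. By cells it was 11 and 2, and 8 and 3, in the same order. TRBV19 was carried by 31 of 555 clones (5.59%, 95% Clopper-Pearson interval 3.83 to 7.83) and 97 of 1028 clones (9.44%, 7.72 to 11.4) in the 5xFAD;Cxcr6-/- libraries, against 76 of 1272 (5.97%, 4.74 to 7.42) and 121 of 1489 (8.13%, 6.79 to 9.63) in the 5xFAD libraries. Each genotype had 1 library near 6% and 1 above 8%, and the groups overlapped. Intervals cover counting error only. The mean share of clones was 7.51% ± 2.72 in 5xFAD;Cxcr6-/- and 7.05% ± 1.52 in 5xFAD (SD, n = 2 libraries each), a difference of 0.460 percentage points with an exact two-sided permutation p of 1. With 2 libraries against 2 that test cannot give a p below 0.333.

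By cells the means stood in the other order. TRBV19 was found in 4.43% and 8.74% of TRB cells in the 5xFAD;Cxcr6-/- libraries, against 5.44% and 10.3% in the 5xFAD libraries. The groups overlapped, with 1 lower and 1 higher library in each. The means were 6.59% ± 3.05 in 5xFAD;Cxcr6-/- and 7.87% ± 3.43 in 5xFAD (SD, n = 2 each), which differ by -1.28 percentage points with an exact two-sided permutation p of 0.667. Without 5xFAD;Cxcr6-/- library 1 the difference was 0.875 points, and without 5xFAD library 2 it was 1.15 points.

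**Figure D1:**
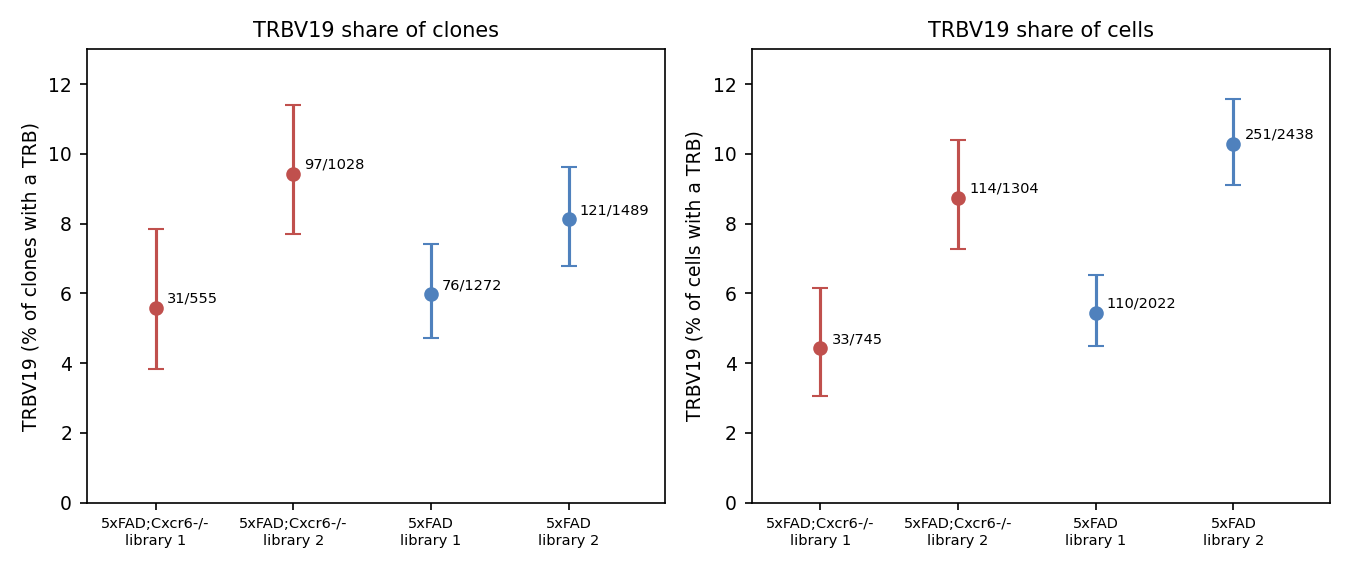
Share of clones (left) and of cells (right) with TRBV19, in percent of clones or cells with a productive TRB, 1 point per library with its 95% Clopper-Pearson interval and the counts beside it. In both panels each genotype has 1 low and 1 high library, and the genotypes overlap.

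The edgeR quasi-likelihood test over 152 V and J segments gave TRBV19 a log2 fold change of 0.15 (SE 0.23) for 5xFAD;Cxcr6-/- over 5xFAD, with a Benjamini-Hochberg adjusted p of 0.847. The test called 1.32% of segments, namely TRAV11 and TRAJ18, the V and J of the invariant alpha chain of iNKT cells, both lower in 5xFAD;Cxcr6-/-. Without 5xFAD;Cxcr6-/- library 2 the TRBV19 value was -0.34, and without 5xFAD library 1 it was -0.06. The median segment in the fit of all 4 libraries stood at 0.19. With TMM scaling, which shifted the median segment by -0.16 on the log2 scale, TRBV19 was at -0.01. The sign thus depended on the libraries and scaling used. The TRBV segments whose shares followed TRBV19 most closely over the 4 libraries were TRBV2, TRBV14 and TRBV31. Their root mean square log2 distances, after each share was divided by its own mean, were 0.15, 0.20 and 0.23. TRBV2 was carried by 2.16% and 4.67% of clones in the 5xFAD;Cxcr6-/- libraries and by 2.44% and 3.16% in the 5xFAD libraries. It was picked for this likeness, so its order over the libraries is no separate result. TRBV14 ordered the libraries of each genotype as TRBV19 did. TRBV31 was at 3.24% and 4.77% in 5xFAD;Cxcr6-/- but at 3.77% and 3.36% in 5xFAD, the reverse order there.

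TRBV19 clones were small in the 5xFAD;Cxcr6-/- libraries and reached larger sizes in the 5xFAD libraries. Expanded clones, those with 2 or more cells, were 2 of 31 and 10 of 97 in the 5xFAD;Cxcr6-/- libraries, against 10 of 76 and 27 of 121 in the 5xFAD libraries. Among other TRBV they were 64 of 524 and 93 of 931 in 5xFAD;Cxcr6-/-, and 131 of 1196 and 219 of 1368 in 5xFAD. The expanded share of TRBV19 clones was below that of other TRBV in 5xFAD;Cxcr6-/- library 1 (6.45% against 12.2%). It was close in library 2 of that genotype (10.3% against 9.99%) and higher in both 5xFAD libraries. The largest TRBV19 clone had 2 and 5 cells in the 5xFAD;Cxcr6-/- libraries, against 10 and 29 cells in the 5xFAD libraries. The largest clone of other TRBV had 51 and 31 cells in 5xFAD;Cxcr6-/-, and 254 and 76 cells in 5xFAD. The largest clone of other TRBV was thus also larger in both 5xFAD libraries. Clones of 10 or more cells held 0% of TRBV19 cells in both 5xFAD;Cxcr6-/- libraries, against 18.2% and 35.9% in the 5xFAD libraries. The same clones of other TRBV held 8.71% and 9.58% of cells in the 5xFAD;Cxcr6-/- libraries and 27.2% and 19.1% in the 5xFAD libraries.

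Clone size grows with the number of cells sampled. The share of cells in expanded clones was therefore also computed for every library thinned to 745 TRB cells. For TRBV19 and other TRBV alike, the mean number of cells in expanded clones was divided by the mean number of cells drawn. Both means are exact over all possible draws. This share was 12.1% and 17.8% of TRBV19 cells in the 5xFAD;Cxcr6-/- libraries, against 31.6% and 50.6% in the 5xFAD libraries. The genotypes did not overlap, and both 5xFAD libraries were the higher ones. Before thinning, 4 of 33 and 27 of 114 TRBV19 cells were in expanded clones in 5xFAD;Cxcr6-/-, and 44 of 110 and 157 of 251 in 5xFAD. The thinned means were 14.9% ± 4.0 in 5xFAD;Cxcr6-/- and 41.1% ± 13.5 in 5xFAD (SD, n = 2 each), a difference of -26.1 percentage points. The exact two-sided permutation p was 0.333, the smallest that 2 libraries against 2 allow, so the design cannot call this difference. Without 5xFAD library 2 the difference was -16.6 points, and over the libraries left out in turn it ran from -35.7 to -16.6 points.

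Cells of other TRBV gave thinned shares of 35.4% and 24.5% in the 5xFAD;Cxcr6-/- libraries and 37.4% and 35.1% in the 5xFAD libraries, which differ in their means by -6.30 points (exact permutation p of 0.667). TRBV19 minus other TRBV was -23.3 and -6.77 points in the 5xFAD;Cxcr6-/- libraries, against -5.83 and 15.5 points in the 5xFAD libraries. The genotype means of this difference differed by -19.8 points, again with an exact two-sided permutation p of 0.333. Over all 4 libraries TRBV19 was below other TRBV in 3 and above in 1, with a mean of -5.10 points and an exact two-sided sign-flip p of 0.625. Only 5xFAD library 2 was above, and without 5xFAD;Cxcr6-/- library 1 the mean was 0.963 points.

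**Figure D2:**
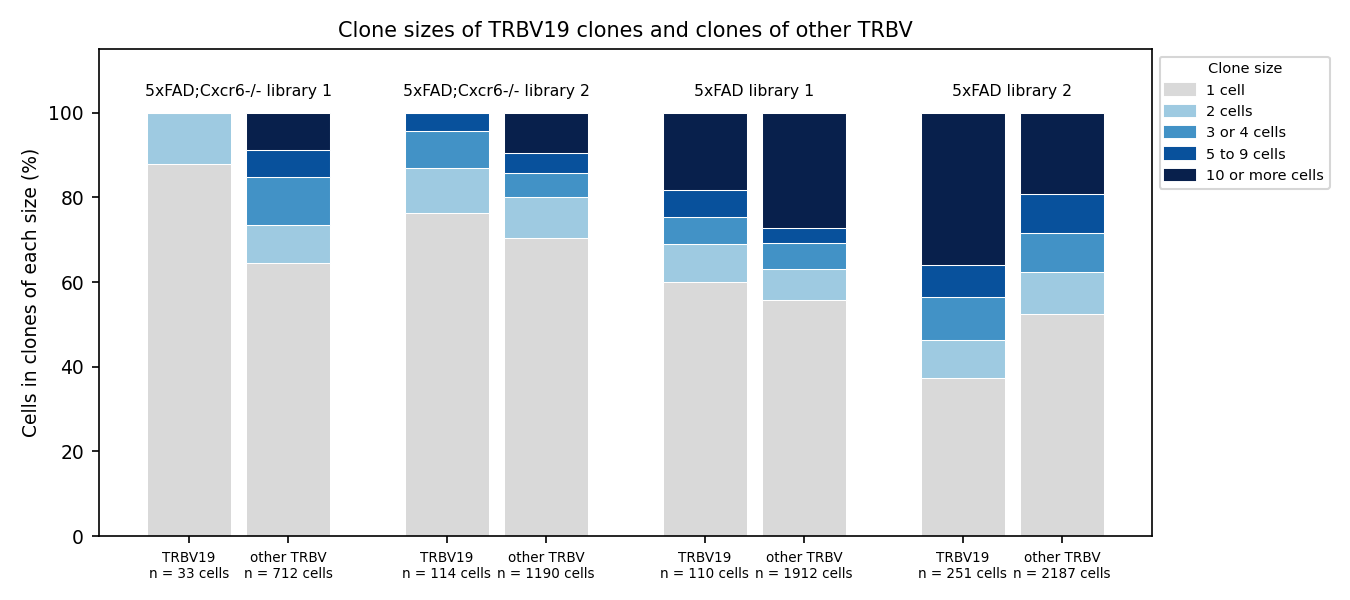
Share of cells in clones of 1, 2, 3 or 4, 5 to 9 and 10 or more cells (stacked), for TRBV19 (left bar) and other TRBV (right bar) of each library, before thinning. The 5xFAD;Cxcr6-/- libraries have no TRBV19 clone of 10 or more cells, while such clones hold 18.2% and 35.9% of TRBV19 cells in the 5xFAD libraries.

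In the edgeR test of expanded against single clones with the library as a block, TRBV19 had a log2 fold change of 0.24 (SE 0.25, adjusted p of 0.674), and 1.97% of the 152 segments were called. Those were TRAV11, TRAJ18 and TRAJ49. The median segment in that fit stood at 0.25, so TRBV19 lay close to it. With TMM scaling, which shifted the median segment by -0.44, the TRBV19 value was -0.20. Without 5xFAD library 2, in the fit that gave 0.24, it was 0.0097. The interaction with genotype was -0.64 (SE 0.55, edgeR adjusted p of 0.958). It was -1.41 without 5xFAD;Cxcr6-/- library 2 and -0.40 without library 1 of that genotype. For the interaction 0% of the segments were called by edgeR or by DESeq2, with 5 at an unadjusted edgeR p under 0.05.

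The named large clones differed in joining segment and in alpha partner. In 5xFAD;Cxcr6-/- library 1 the 2 expanded clones had 2 cells each, and 1 of them carried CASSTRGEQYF with TRBJ2-7 and the alpha segments TRAV4D-4 and TRAJ21. In 5xFAD;Cxcr6-/- library 2 the clones of 5 and 4 cells printed above carried TRAV7D-2 with TRAJ34, and TRAV6N-7 with TRAJ13. In 3 cells of the clone of 4 a second alpha chain, with TRAV12D-3 and TRAJ15, was found. Another clone there had 3 cells with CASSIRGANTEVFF, TRAV12-2 and TRAJ43.

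In 5xFAD library 1, 2 clonotypes had 10 cells. One carried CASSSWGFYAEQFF with TRAV12-1 and TRAJ34, and the other carried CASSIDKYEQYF with no alpha chain in the tables. A further clonotype of 7 cells and one of 1 cell had the same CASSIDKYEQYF nucleotides, so 18 cells with that chain were listed as 3 clonotypes. In 5xFAD library 2 the clone of 29 cells carried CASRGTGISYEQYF with TRAV13-1 and TRAJ4, and made up 1.19% of all TRB cells there. The clones of 18 and 17 cells carried TRAV14D-1 with TRAJ26, and TRAV19 with TRAJ49. Identical TRBV19 chains fell in more than 1 clonotype for 1 and 2 sequences in the 5xFAD;Cxcr6-/- libraries and for 1 and 5 sequences in the 5xFAD libraries. When identical TRB chains were merged into 1 clone, the genotype difference in thinned expanded share was -25.4 points.

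TRBV19 chains used all 12 TRBJ segments found in the data, and none of the TRBJ differences from other TRBV passed the edgeR test. The test of TRBJ, TRAV and TRAJ partners called 1.54% of 130 segments, both of them alpha segments, and 7 had an unadjusted p under 0.05. TRBJ2-7, the joining segment most used, was in 16.1% and 14.4% of TRBV19 chains in the 5xFAD;Cxcr6-/- libraries and in 23.7% and 19.8% in the 5xFAD libraries. Other TRBV chains carried it at 21.0% and 19.5% in 5xFAD;Cxcr6-/- and at 21.0% and 20.9% in 5xFAD, so TRBV19 was higher in 1 library of 4. For TRBV19 the genotypes did not overlap, with both 5xFAD libraries higher, but the interaction of the contrast with genotype was not called (log2 value -0.44, SE 0.31, edgeR adjusted p of 0.976). With TMM scaling alone TRBJ2-7 was called, with a log2 fold change of -0.68 and an edgeR adjusted p of 0.0367.

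TRBJ2-1 was in 1 of 31 and 19 of 97 TRBV19 chains in the 5xFAD;Cxcr6-/- libraries and in 14 of 76 and 17 of 121 in the 5xFAD libraries, so 1 library was lower than the other 3. For TRBJ1-1 the shares were 22.6% and 10.3% in the 5xFAD;Cxcr6-/- libraries and 9.21% and 12.4% in the 5xFAD libraries. TRBJ2-5 was in 12.9% and 6.19% in 5xFAD;Cxcr6-/- and in 15.8% and 8.26% in 5xFAD. None of these 3 separated the genotypes.

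Across all 4 libraries TRBJ2-2 and TRBJ1-6 were higher, and TRBJ1-2 and TRBJ1-5 lower, in TRBV19 chains than in other chains. These 4 were singled out after their values were seen. Of the 4, TRBJ1-2 had the smallest p, with a mean of 3.37% of TRBV19 chains and 6.55% of other chains, a log2 fold change of -0.97 (SE 0.42) and an edgeR adjusted p of 0.690.

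The TRBJ2 cluster as a whole was in 54.8% and 62.9% of TRBV19 chains in the 5xFAD;Cxcr6-/- libraries, against 72.4% and 71.1% in the 5xFAD libraries. The genotypes did not overlap, and both 5xFAD libraries were the higher ones. The means were 58.9% ± 5.69 in 5xFAD;Cxcr6-/- and 71.7% ± 0.915 in 5xFAD (SD, n = 2 each), with a difference of -12.9 points and an exact two-sided permutation p of 0.333. In other TRBV the cluster was in 60.0% and 65.8% of chains in the 5xFAD;Cxcr6-/- libraries and in 63.1% and 64.0% in the 5xFAD libraries, which overlap.

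**Figure D3:**
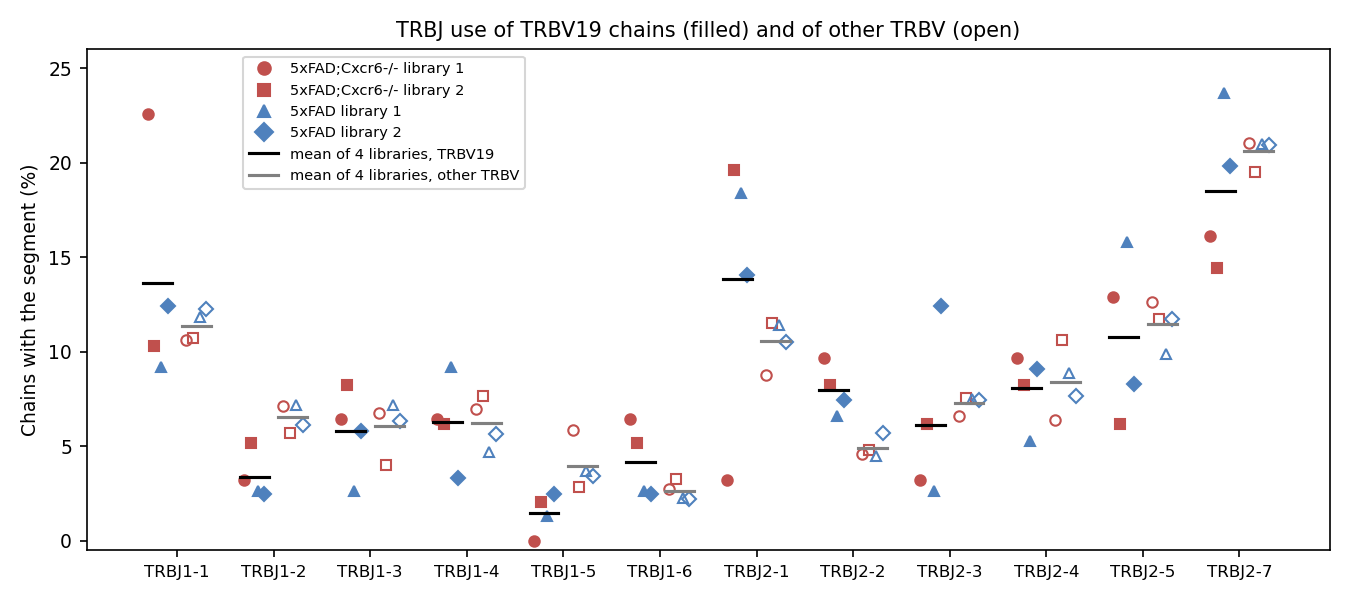
Percent of TRBV19 chains (filled, left) and of chains of other TRBV (open, right) with each TRBJ segment, 1 symbol per library, with the mean of the 4 libraries as a line. The TRBV19 points rest on 31 to 121 chains per library. TRBJ1-2 and TRBJ1-5 lie below the other TRBV in all 4 libraries.

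Isoleucine, the residue that germline TRBV19 encodes at position 5 of CDR3, was the most common one there in TRBV19 chains of each library, and the inside of the loop gave no called motif. The loop began with CASSI in 32.3% and 48.5% of TRBV19 chains in the 5xFAD;Cxcr6-/- libraries and in 39.5% and 39.7% in the 5xFAD libraries. The genotypes overlapped. In other TRBV isoleucine stood at position 5 in at most 0.715% of chains of a library. Of the 16 germline bases, chains kept a mean of 13.2 ± 0.0527 in 5xFAD;Cxcr6-/- and 13 ± 0.0468 in 5xFAD (SD, n = 2 libraries each). The stretch between V and J averaged 9.13 and 9.39 bases in 5xFAD;Cxcr6-/- and 9.16 and 10.2 bases in 5xFAD. Among expanded clones 23 of 49 chains (46.9%) began with CASSI, and among single clones 112 of 276 (40.6%). Of the 7 clonotypes with 10 or more cells, 1 did.

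Loop length, counted in residues from the first cysteine to the last phenylalanine, averaged 13.4 and 13.8 in TRBV19 of the 5xFAD;Cxcr6-/- libraries and 13.4 and 13.9 in TRBV19 of the 5xFAD libraries. The means were 13.6 ± 0.294 residues in 5xFAD;Cxcr6-/- and 13.7 ± 0.353 residues in 5xFAD (SD, n = 2 each), with an exact two-sided permutation p of 0.667. Other TRBV averaged 13.8 and 13.9 in 5xFAD;Cxcr6-/- and 14.1 and 13.8 in 5xFAD. TRBV19 was shorter in 3 of 4 libraries, with a mean difference of -0.246 residues over the 4 and an exact two-sided sign-flip p of 0.375. Without 5xFAD library 1 this difference was -0.120 residues, the smallest of the values with a library left out, which reached -0.363. With 4 libraries that test cannot give a p below 0.125. Loops of 12 or fewer residues were 35.5% and 15.5% of TRBV19 chains in the 5xFAD;Cxcr6-/- libraries and 28.9% and 11.6% in the 5xFAD libraries. In other TRBV they were 16.8% and 16.4% in 5xFAD;Cxcr6-/- and 14.3% and 17.9% in 5xFAD. Thus 1 library of each genotype had short TRBV19 loops and the other did not.

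**Figure D4:**
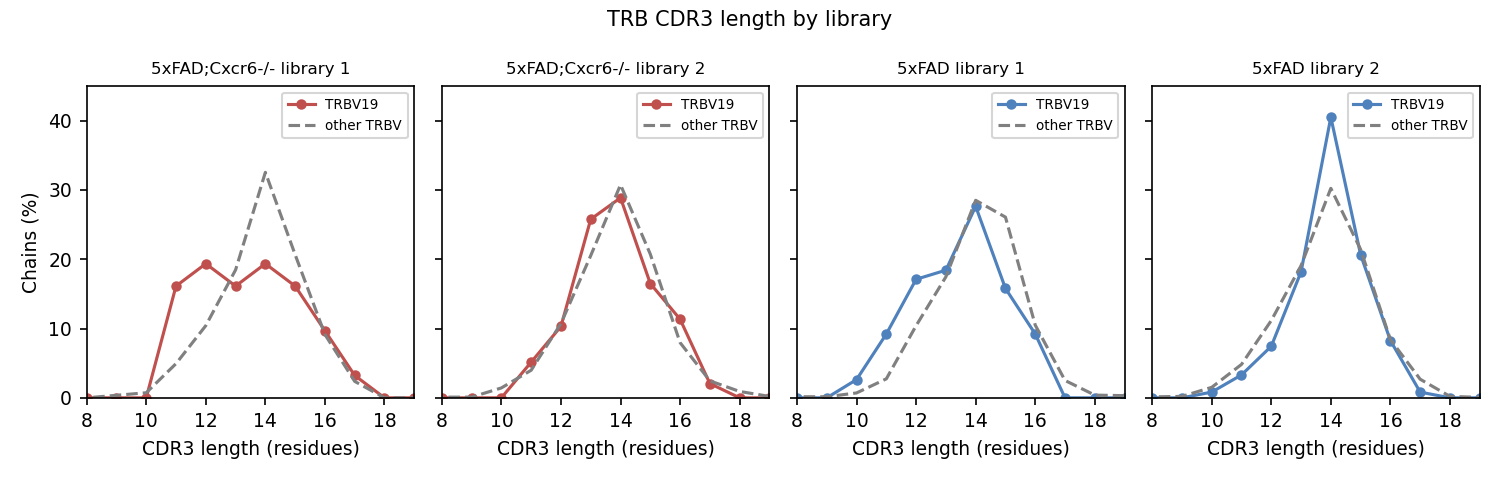
Percent of TRB chains by CDR3 length in residues, for TRBV19 (points and solid line) and other TRBV (dashed line), 1 panel per library. In the first library of each genotype 35.5% and 28.9% of TRBV19 loops have 12 or fewer residues, while the second libraries follow the other TRBV more closely.

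The edgeR test of adjacent residue pairs inside the loop, with the first 5 and last 5 residues left out, called 0% of 159 pairs between TRBV19 and other TRBV, and DESeq2 called 0 as well. By edgeR 4 pairs had an unadjusted p under 0.05. For the difference of this contrast between genotypes 0% were called by edgeR, 0 by DESeq2, and 3 had an unadjusted p under 0.05. When only the first 4 residues were left out, 9 pairs were called by edgeR, of which 6 start with the germline isoleucine at position 5. The remaining pairs, DA, QD and LD, were lower in TRBV19. At position 5, leucine, aspartate and glutamine were in a mean of 3.33%, 1.52% and 2.67% of TRBV19 chains. In other chains the means were 21.6%, 17.8% and 8.73%.

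Fixed motifs were read as shares. DRG, a triplet that a D segment can encode, was in 0 of 31 and 0 of 97 TRBV19 chains in the 5xFAD;Cxcr6-/- libraries, which allow up to 9.68% and 3.09%. It was in 0 of 76 and 1 of 121 TRBV19 chains in the 5xFAD libraries, against 3.84% and 4.29% of other chains in 5xFAD;Cxcr6-/- and 3.37% and 4.41% in 5xFAD. TRBV19 was lower in 4 of 4 libraries, with a mean difference of -3.77 points and an exact two-sided sign-flip p of 0.125.

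The glycine pair GG was in 3.23% and 13.4% of TRBV19 chains in the 5xFAD;Cxcr6-/- libraries, against 23.7% and 30.6% in the 5xFAD libraries. The 2 genotypes did not overlap, their means differed by -18.8 points, and the exact two-sided permutation p was 0.333. Other chains carried GG at 24.3% and 26.3% in 5xFAD;Cxcr6-/- and 26.5% and 26.7% in 5xFAD. GQG, the core of germline Trbd1 in 1 reading frame, ran the other way. It was in 3 of 31 and 5 of 97 TRBV19 chains in the 5xFAD;Cxcr6-/- libraries and in 0 of 76 and 0 of 121 in the 5xFAD libraries, which allow up to 3.95% and 2.48% (exact permutation p of 0.333). All 8 GQG chains belonged to single clones. Of the other triplets that a D segment can encode, GTG was in 0 and 4 TRBV19 chains in the 5xFAD;Cxcr6-/- libraries and in 4 and 9 in the 5xFAD libraries, and DWG was in 0 and 1 and in 2 and 7 in the same order. As shares, both were higher in each 5xFAD library without overlap (exact permutation p of 0.333). Other chains carried GTG at 6.03% and 6.33% in 5xFAD;Cxcr6-/- and at 6.58% and 7.09% in 5xFAD. That is also without overlap and in the same direction, so the GTG split was not particular to TRBV19. Other chains carried DWG at 5.48% and 3.78% in 5xFAD;Cxcr6-/- and at 5.17% and 4.55% in 5xFAD, which overlap. GLG, in 0 and 3 chains of 5xFAD;Cxcr6-/- and 1 and 5 of 5xFAD, overlapped. Against other TRBV, GTG, DWG and GLG were each lower in 3 libraries and higher in 1. The pair RS, named above for human TRBV19, was in 1 and 3 TRBV19 chains in the 5xFAD;Cxcr6-/- libraries and in 0 and 0 in the 5xFAD libraries, at 1.49% to 2.35% of other chains.

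Of 307 distinct TRBV19 CDR3 amino-acid sequences 3 (0.977%) occurred in 2 libraries, and of 4074 of other TRBV 21 (0.515%) occurred in 2 or more. All 3 began with CASSI and joined a 5xFAD;Cxcr6-/- with a 5xFAD library. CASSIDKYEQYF had the same nucleotides in 5xFAD;Cxcr6-/- library 2 (2 cells, with TRAV13-1 and TRAJ57) and in 5xFAD library 1 (18 cells). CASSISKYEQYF was made from different nucleotides in the same 2 libraries, as the capitals printed above show, in 1 cell each. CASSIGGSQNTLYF also differed in nucleotides between 5xFAD;Cxcr6-/- library 2 and 5xFAD library 2, with 1 cell each, and its alpha segments differed. None of the libraries held 2 nucleotide forms of the same TRBV19 CDR3.

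Some of these related beta chains shared their alpha segments. This was found after the values were seen and is a description. In all 4 libraries 5 clones carried TRAV6-7-DV9 joined to TRAJ53, and 4 of them carried TRBV19 with TRBJ2-7 and either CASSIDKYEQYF or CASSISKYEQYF. In the whole data 82 clones had TRAV6-7-DV9, 14 of them with TRBV19, and 50 had TRAJ53, 9 of them with TRBV19. The 4 clones came from 5xFAD;Cxcr6-/- library 2 (1 clone) and 5xFAD library 1 (3 clones, of which 2 had the same beta and alpha nucleotides). Of these last 2, one was a single cell that also held a TRBV5 chain and a second alpha chain with TRAV13-2 and TRAJ15, and doublets were not called. Their alpha CDR3 sequences had 17 residues each and differed in the bases between V and J, shown in capitals, from TRA segments on chromosome 14:
5xFAD;Cxcr6-/- library 2, 1 cell, with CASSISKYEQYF: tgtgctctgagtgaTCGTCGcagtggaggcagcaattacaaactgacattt
5xFAD library 1, 7 cells and 1 cell, with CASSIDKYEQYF: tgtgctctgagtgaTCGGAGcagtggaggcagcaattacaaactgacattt
5xFAD library 1, 1 cell, with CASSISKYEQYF: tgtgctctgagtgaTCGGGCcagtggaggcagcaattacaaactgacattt
5xFAD library 2, 1 cell, with a TRBV3 chain: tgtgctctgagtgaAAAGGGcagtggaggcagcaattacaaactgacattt
The 3 forms paired with TRBV19 all began CALSDR, and the one paired with TRBV3 began CALSEK. TRAV6-7-DV9 has near-identical copies in the locus, so its assignment is uncertain.

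Chains with CASSI, any 2 residues and YEQYF numbered 0 and 5 among TRBV19 in the 5xFAD;Cxcr6-/- libraries. In the 5xFAD libraries they numbered 4 and 0. The pattern begins with the isoleucine that germline TRBV19 encodes, which is rare there in other TRBV. Its count of 0 among other TRBV in each library was therefore nearly fixed in advance. The 5 of 5xFAD;Cxcr6-/- library 2 included the clone of 4 cells printed above.

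TRBV19 clones used a broad choice of alpha segments, and few TRBV19 cells carried an iNKT-like alpha chain. Other invariant alpha chains were not looked for, and cells without an alpha chain could not be classed. The 281 TRBV19 clones with an alpha chain used 74 TRAV and 43 TRAJ segments. TRAJ18 was in 3.45% and 1.20% of TRBV19 clones in the 5xFAD;Cxcr6-/- libraries and in 5.97% and 4.90% in the 5xFAD libraries. Clones of other TRBV carried it at 8.14% and 5.27% in 5xFAD;Cxcr6-/- and at 23.7% and 16.2% in 5xFAD. TRBV19 was lower in 4 of 4 libraries, with a log2 fold change of -1.83 (SE 0.33) and an edgeR adjusted p of 2.9e-05. TRAV11 was likewise lower in 4 of 4, at -1.89 (SE 0.38, edgeR adjusted p of 6.4e-05). Without 5xFAD library 2 neither was called, with edgeR adjusted p of 0.0891 for TRAJ18 and 0.126 for TRAV11 at values of -1.90 and -1.89. For the interaction of this contrast with genotype 0% of partner segments were called by edgeR and 0 by DESeq2, with 1 at an unadjusted edgeR p under 0.05.

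The iNKT-like alpha chain, TRAV11 or TRAV11D joined to TRAJ18, is the invariant chain of cells that see lipid on CD1d, and in mice it pairs mainly with a few other beta segments. It was in 0 of 33 and 0 of 114 TRBV19 cells in the 5xFAD;Cxcr6-/- libraries, which allow up to 9.09% and 2.63%, and in 4 of 110 and 2 of 251 in the 5xFAD libraries. Cells of other TRBV carried it at 3.37% and 1.85% in 5xFAD;Cxcr6-/- and at 11.9% and 7.77% in 5xFAD. TRBV19 was lower in 4 of 4 libraries, with a mean difference of -5.11 points (exact two-sided sign-flip p of 0.125). The pool of other TRBV includes the beta segments that the iNKT-like chain mainly pairs with. Whether TRBV19 differs in this from any single other segment was not tested, here or for TRAJ18 and TRAV11. Of the 5 TRBV19 clones with this chain, 2 also held a second beta chain. When iNKT-like clones were left out, neither segment was called. These segments define the clones left out, so that outcome was largely set in advance. TRAV11 then stood at 1.86 on the log2 scale (SE 1.07, edgeR adjusted p of 0.996).

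Among other alpha partners, TRAJ21 had the smallest p of those higher in TRBV19. It was in 17.2% and 6.02% of TRBV19 clones in the 5xFAD;Cxcr6-/- libraries and in 5.97% and 4.90% in the 5xFAD libraries, against 2.94% and 3.01% of other clones in 5xFAD;Cxcr6-/- and 2.80% and 3.05% in 5xFAD. TRBV19 was higher in 4 of 4 libraries, with a log2 fold change of 1.23 (SE 0.50), but the edgeR adjusted p was 0.589. TRAV6-7-DV9 was in 3.45% and 1.20% of TRBV19 clones in 5xFAD;Cxcr6-/- and in 10.4% and 4.90% in 5xFAD, against 2.26% and 2.76% of other clones in 5xFAD;Cxcr6-/- and 1.35% and 2.06% in 5xFAD. TRBV19 was higher in 3 of 4 libraries, with a log2 fold change of 1.27 (SE 0.60) and an edgeR adjusted p of 0.715, and without 5xFAD library 1 the value was 0.47. The 7 TRBV19 clones with TRAV6-7-DV9 in 5xFAD library 1 included the related TRAJ53 clones listed above. The interaction with genotype was 0.79 (SE 1.06) on the log2 scale for TRAJ21 and -2.56 (SE 1.44) for TRAV6-7-DV9. Both had an edgeR adjusted p of 0.976. The other TRAV with the highest mean shares of TRBV19 clones were TRAV6-6 (5.83%), TRAV12-2 (4.77%), TRAV13-1 (4.57%) and TRAV7D-2 (4.15%), and the other TRAJ were TRAJ22 (6.19%) and TRAJ26 (6.12%). None of these 6 was called, and several TRAV have near-identical copies that the deposited assignment could confuse.

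An alpha chain was found in 93.9% and 86.8% of TRBV19 cells in the 5xFAD;Cxcr6-/- libraries and in 82.7% and 87.6% in the 5xFAD libraries. In cells of other TRBV it was found in 83.8% and 84.2% in 5xFAD;Cxcr6-/- and in 79.4% and 80.2% in 5xFAD. By cells, TRBV19 was higher in 4 of 4 libraries, by a mean of 5.89 points (exact two-sided sign-flip p of 0.125). By clones the mean difference was 4.84 points (exact two-sided sign-flip p of 0.25). In 5xFAD;Cxcr6-/- library 2 an alpha chain was found in 83 of 97 TRBV19 clones and 797 of 931 other clones, so TRBV19 was not higher there. Cells with 2 or more alpha chains differed by a mean of -0.365 points and cells with a second beta chain by 0.0959 points, with exact two-sided sign-flip p of 0.875 and 1.

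TRBV19 contigs held fewer UMIs than other beta contigs in each library. The median was 8 and 9 UMIs per TRBV19 contig in the 5xFAD;Cxcr6-/- libraries and 7 and 7 in the 5xFAD libraries. Other TRB contigs had medians of 10 and 10 in 5xFAD;Cxcr6-/- and 10 and 9 in 5xFAD. The mean difference of medians was -2 UMIs, lower in 4 of 4 libraries (exact two-sided sign-flip p of 0.125). Alpha contigs of the same cells had medians of 4 and 4.5 UMIs beside TRBV19 in 5xFAD;Cxcr6-/- and 4 and 4 in 5xFAD, against 4 in each library beside other TRBV. TRBV19 was not the segment with the fewest, as between 2 and 5 of the 20 or 21 other segments compared in a library had a lower median. Fewer transcripts per cell and poorer capture of this segment cannot be told apart here.

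**Figure D5:**
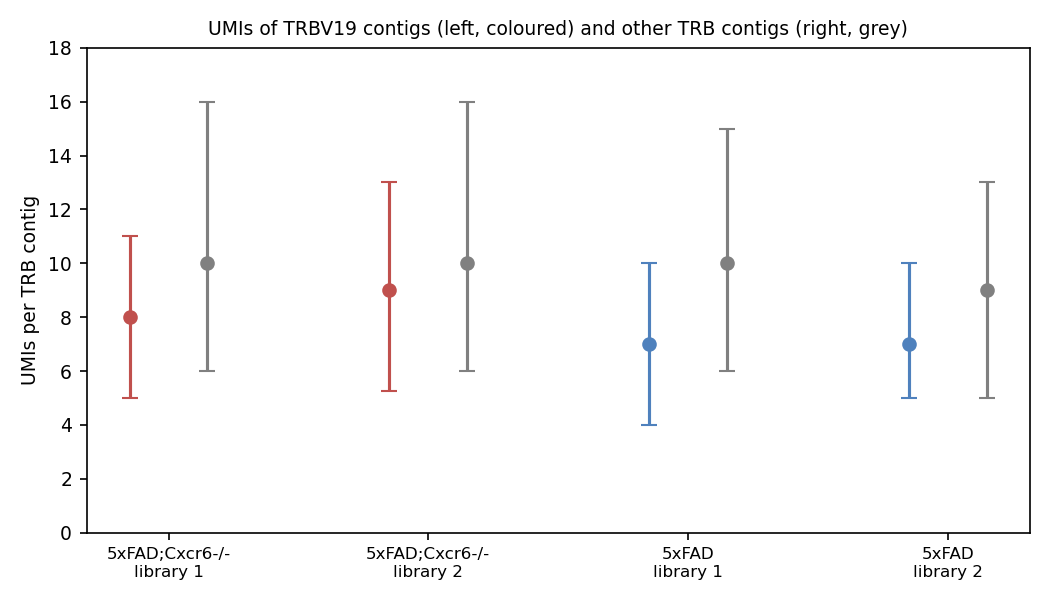
UMIs per TRB contig for TRBV19 (coloured, left) and other TRBV (grey, right) in each library, as the median (point) with the lower and upper quartile (bars). The TRBV19 median is 1 to 3 UMIs below that of other TRBV in each library.

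In all, 24 measures were compared between genotypes and 19 between TRBV19 and other TRBV by exact tests over libraries. After Benjamini-Hochberg adjustment over each family the smallest exact permutation p was 0.667 and the smallest exact sign-flip p was 0.396.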

How the data were processed

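Receptor libraries of 4 samples were used, made with a 10x Chromium Immune Profiling kit per the labels' protocols. Cell Ranger 6.0 and mm10 are named per the submitters' processing notes. The receptor reference is not given in the sources used here. The deposited contig tables list read and UMI counts, not normalized, and all deposited contigs are productive. Clones were the deposited clonotypes. No doublet caller was run, and cells with a second TRB were kept.

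Segments and residue pairs with at least 10 clones or chains were fitted with edgeR 4.0.16 (quasi-likelihood, log clone total as offset, SE from the F statistic), with p-values adjusted over all tested at a threshold of 0.05. DESeq2 1.42.0, TMM scaling, no filter, other clone and cell definitions, and leaving out each library were alternatives. The fits were tested on simulated counts with a small, fixed spread between libraries, in which only common segments or pairs were changed. That test does not cover rarer segments or a wider spread, and its outcome is not given here. Annotation was GENCODE vM21 on GRCm38.

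Named items were TRBV19, the 3 TRBV most like it, the 4 TRBJ, 5 TRAV and 3 TRAJ it used most, called segments and motifs, the 2 lowest-p partners per direction, the 3 largest clones per library, and CDR3 found in 2 libraries. Members and lists were chosen with earlier results of these data known.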

Additional observations from a re-analysis of the deposited data

Results flagged for a closer look

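The TRBJ2 cluster, the fixed motifs, the expanded share, CDR3 length and the alpha pairing shares were searched for measures that split by genotype. In 3 of them TRBV19 stood on one side of other TRBV in both 5xFAD;Cxcr6-/- libraries and on the opposite side in both 5xFAD libraries. The difference could not be called with 2 libraries per genotype, where an exact permutation test cannot give a p below 0.333. A search over several measures gives some such splits without any genotype effect, so their number is not a result. The share of the TRBJ2 cluster minus that in other TRBV averaged -4.01 percentage points in 5xFAD;Cxcr6-/- and 8.17 points in 5xFAD, a difference of -12.2 points. The GQG triplet was 3.94 points higher in 5xFAD;Cxcr6-/- on average, and its difference in 5xFAD was -3.64 points, which makes 7.58 points between genotypes and rests on 8 chains. The RS pair was 1.07 points higher in 5xFAD;Cxcr6-/-, with -1.67 points in 5xFAD, which makes 2.74 points and rests on 4 chains.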

How the results depend on the processing

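Of 307 alternative values for 32 results, 253 were counted as unchanged. For fitted values this meant the same direction and side of the threshold, and for the measures per library the same direction alone. For numbers of called segments or motifs it meant a similar number. The log2 fold change of TRBV19 between genotypes ran from -0.34 to 0.41 (edgeR or DESeq2 adjusted p from 0.651 to 0.974 over 14 alternatives). It was -0.24 by cells, -0.011 with TMM scaling and -0.34 to 0.41 when each library was left out. TRBV19 in expanded clones was -0.20 with TMM. With TMM the partner values were -0.021 for TRBJ2-1, -0.14 for TRAV6-6, -0.26 for TRAV12-2, -0.074 for TRAV13-1 and -0.13 for TRAV7D-2, where TMM moved the median partner by -0.47. TRBJ1-1, at -0.0026 in the fit reported, was 0.16 with identical TRB as clone, 0.053 in cells with 1 TRB and 1 or 2 TRA, 0.018 without iNKT-like clones and 0.022 with DESeq2. TRAV11 was 1.86 (SE 1.07) without iNKT-like clones, which TRAV11 or TRAV11D with TRAJ18 defines. Leaving out each library gave -0.16 to 0.11 for TRBJ1-1, -0.60 to 0.0027 for TRBJ2-5, -0.20 to 0.60 for TRAV12-2, -0.11 to 0.73 for TRAV13-1 and -0.029 to 0.66 for TRAV7D-2. Segments called between genotypes numbered 0 without iNKT-like clones, 0 by cells, 0 among TRBV alone, and 0 to 2 with a library left out. Segments called between expanded and single clones numbered 8 with identical TRB as clone, 0 without iNKT-like clones, 0 at 3 or more cells, 6 with TMM, 0 with DESeq2 and 0 to 4 with a library left out. Partner segments called numbered 0 without iNKT-like clones, 4 with TMM and 0 to 2 with a library left out. With the first 4 residues left out 9 motifs were called. The genotype difference in CDR3 length was 0.0473 residues in cells with 1 TRB, and -0.307 to 0.193 with a library left out. With a library left out the difference between genotypes in share of cells ran from -3.71 to 1.15 points, TRBV19 minus other expanded share from -12.0 to 0.963 points, cells with 2 or more TRA from -1.39 to 0.117 points and cells with a second TRB from -0.603 to 1.93 points. The share with 2 or more TRA was 0.182 points at 3 UMIs or more and 0.0472 points by clones. The causes were not tested, except that fewer clones enter where a library or a clone class is left out. With the replicate number as a block TRBV19 was 0.11 (edgeR adjusted p of 0.782) and 3 segments were called. Same-numbered libraries deviated with a correlation of -0.05 over 152 segments, and the labels give no meaning to the number. Depth limits 5xFAD;Cxcr6-/- library 1 most, with 31 TRBV19 clones.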
